A study of Rattus norvegicus with 23 samples.

Results

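Cultured rat brain endothelial cells that had gone through OGD/R (loss of oxygen and glucose and then reoxygenation, which models ischemic stroke in a dish) with both N,N-dimethyltryptamine (DMT) and BD1063 were compared with cells kept in normoxia. DMT is a ligand of sigma and serotonin receptors, and BD1063 is an antagonist of sigma receptors. The comparison asks which differences from normoxia were present when both compounds were. Its members are 12 of the 23 libraries of the series, taken by their sample titles. They are the 6 libraries titled OGD/R plus DMT plus BD1063, called the BD1063 group below, and the 6 normoxia libraries. The other 11 libraries are 5 of OGD/R with DMT (the DMT group) and 6 of OGD/R alone (the OGD/R group). All 23 held RNA of primary endothelial cells of rat brain, grown in co-culture with pericytes and astrocytes, with 1 insert lysed for each library. Doses, exposure times and whether normoxia inserts received any vehicle are not given in the sources used here. The sources also do not say whether inserts came from separate cell isolations, and the p-values here speak only to the spread from insert to insert. None of the 23 libraries is labelled as BD1063 alone or as DMT in normoxia.

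Brain capillary endothelial cells form the blood-brain barrier by sealing their contacts with tight junctions, keeping vesicle traffic low, and carrying polarised transporters for nutrients and drugs. Cell division in any tissue needs replication origins to be licensed by the MCM helicase, and the genes of that step are read out by E2F factors at the start of S phase. Sterol enzymes are switched on together by the factor SREBP2 when sterol in the endoplasmic reticulum is low, while liver X receptors switch on cholesterol export genes when sterol is plentiful. The sigma-2 binding site, one of the sites that sigma ligands bind, is the protein TMEM97.

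Promoter sequence is shown for the gene groups that gave the most one-sided results below, DNA replication and cholesterol synthesis. The sequences are from RefSeq on build GRCr8, 5′ to 3′ on the strand of the gene, from the 250 bases before its annotated start. Capitals in the 4 replication promoters mark the E2F letters TTTGGCGC, TTTCCCGC, TTTCGCGC and TTTGCCGC, read on both strands, with overlapping matches run together. Capitals in the 2 sterol promoters mark CCAAT, also on both strands, the letters bound by NF-Y. All 250 bases are given for Mcm5 and Hmgcs1, and a window of 80 bases for the others. Mcm2, Mcm5, Mcm6 and Mcm7 code for subunits of the replicative helicase. Hmgcs1 codes for HMG-CoA synthase of the mevalonate pathway, and Insig1 for the protein that retains SREBP in the endoplasmic reticulum.
Mcm5 (chr19:13488563-13488812, + strand): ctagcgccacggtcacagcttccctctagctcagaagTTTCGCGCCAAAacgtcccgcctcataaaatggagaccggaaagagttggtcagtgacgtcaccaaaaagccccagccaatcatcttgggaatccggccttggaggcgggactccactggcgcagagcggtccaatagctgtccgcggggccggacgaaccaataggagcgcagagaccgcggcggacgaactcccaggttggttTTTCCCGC
Mcm6 (chr13:42404448-42404527, - strand): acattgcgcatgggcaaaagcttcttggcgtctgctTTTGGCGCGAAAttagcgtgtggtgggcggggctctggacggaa
Mcm7 (chr12:22163349-22163428, - strand): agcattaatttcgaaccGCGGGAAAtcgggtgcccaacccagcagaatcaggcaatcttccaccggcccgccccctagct
Mcm2 (chr4:122918095-122918174, - strand): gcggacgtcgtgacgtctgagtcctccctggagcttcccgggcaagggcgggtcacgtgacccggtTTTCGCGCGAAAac
Hmgcs1 (chr2:53382054-53382303, + strand): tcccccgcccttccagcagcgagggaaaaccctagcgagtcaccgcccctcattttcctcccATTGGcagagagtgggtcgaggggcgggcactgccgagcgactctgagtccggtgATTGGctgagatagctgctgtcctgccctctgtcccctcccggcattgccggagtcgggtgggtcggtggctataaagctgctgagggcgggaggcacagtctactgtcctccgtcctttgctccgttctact
Insig1 (chr4:8057921-8058000, - strand): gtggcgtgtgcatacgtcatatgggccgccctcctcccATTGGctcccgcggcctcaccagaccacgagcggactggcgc
The E2F letters stood in the promoters of 6 of the 15 replication licensing genes with a sequence (40%), of 2 of 24 DNA synthesis genes (8.33%), of 1 of 19 mitosis genes (5.26%) and of 0 of 16 cholesterol synthesis genes. They stood in 498 of 27457 promoters of all genes (1.81%). CCAAT stood in 13 of the 16 cholesterol synthesis promoters (81.2%), 16 of the 19 mitosis promoters (84.2%) and 11 of the 15 licensing promoters (73.3%), and in 34.3% of all promoters. A match is only a match of letters, and binding was not measured here.

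Gene counts summed to between 15486822 and 16619326 reads in the BD1063 libraries and between 15388914 and 18565166 reads in the normoxia libraries. Levels below are in CPM, a count made relative to the total of its library, here the gene total after TMM scaling. On the first principal component, which held 28.31% of the variance, the BD1063 libraries lay between -6.98 and 6.89. On it, normoxia 3 and normoxia 5 lay at -13.8 and -5.95 and the other 4 normoxia libraries between -31.6 and -26.8, so 2 normoxia libraries stood apart from their group. The brain endothelium markers summed to 10300 to 10900 CPM in the BD1063 group and to 10500 to 11600 CPM in normoxia. Of the 15 tested, 9 were lower in the BD1063 group and 2 higher, with a median log2 difference of -0.20. Astrocyte markers summed to 162 to 191 CPM in the BD1063 group and 146 to 163 CPM in normoxia. Of the 13 markers only 3 reached the level needed for testing, with 0 higher and 0 lower. Gfap, Aqp4 and Slc1a2 were below 0.2 CPM on average in both groups. Microglia and leukocyte markers summed to 59.0 to 75.6 CPM in the BD1063 group and 66.5 to 73.7 CPM in normoxia, with 2 of 8 tested higher and 0 lower. The 2 were Itgam, an integrin subunit of myeloid cells (0.554 to 1.45 CPM (median 1.16) in the BD1063 group, 0.176 to 0.649 CPM (median 0.319) in normoxia, log2 difference 1.58, SE 0.29, adjusted p = 0.000192), and Cd68 (0.62), whereas the defining markers Cx3cr1 and P2ry12 averaged below 0.1 CPM in both groups and Ptprc averaged 0.162 CPM in the BD1063 group and 0.0208 CPM in normoxia, too low to test. Itgam and Cd68 were chosen after their values were seen. Fibroblast and meningeal markers, in contrast, summed to 162 to 472 CPM in the BD1063 group and 587 to 1120 CPM in normoxia, and 4 of the 5 tested were lower in the BD1063 group. Pericyte and smooth muscle markers summed to 126 to 230 CPM in the BD1063 group and 193 to 284 CPM in normoxia, with 1 of 9 tested higher and 2 lower.

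Of 13834 genes tested with edgeR's quasi-likelihood test, 3636 (26.3%) differed between the BD1063 group and normoxia at an adjusted p under 0.05. They were 1809 genes higher in the BD1063 group (13.1% of those tested) and 1827 lower (13.2%). The counts of list members against normoxia below stand beside these shares, and a count near them is not a result about its list. Most differences were small, with a median size of 0.39 on the log2 scale among the genes called. Differences of at least 2-fold were mostly losses, with 71 genes higher (0.513%) and 264 lower (1.91%). Leaving out any 1 of the 12 libraries gave between 3134 and 3573 calls, and 2683 genes were called in the same direction in all 12 of those fits. Without normoxia 3 and normoxia 5 together, 3187 genes were called. Fitted without the other 11 libraries, the 2 groups gave 4954 calls. With only the scaling of that fit changed, from TMM to the read totals behind the deposited CPM values, 1590 genes were higher and 1076 lower, while DESeq2's size factors gave 1818 and 1826. Under the read total scaling, 1076 of all 13834 genes were thus lower, in place of 1827. Counts of lower list members under that scaling stand against this smaller share. They numbered 5 of 24 for junctions, 5 of 17 for caveolae, 7 of 26 for endothelial identity, 2 of 17 for Wnt, 9 of 28 for basement membrane and collagen, 8 of 28 for immediate early genes, 3 of 17 for NF-kB and 2 of 20 for coagulation.

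**Figure D1:**
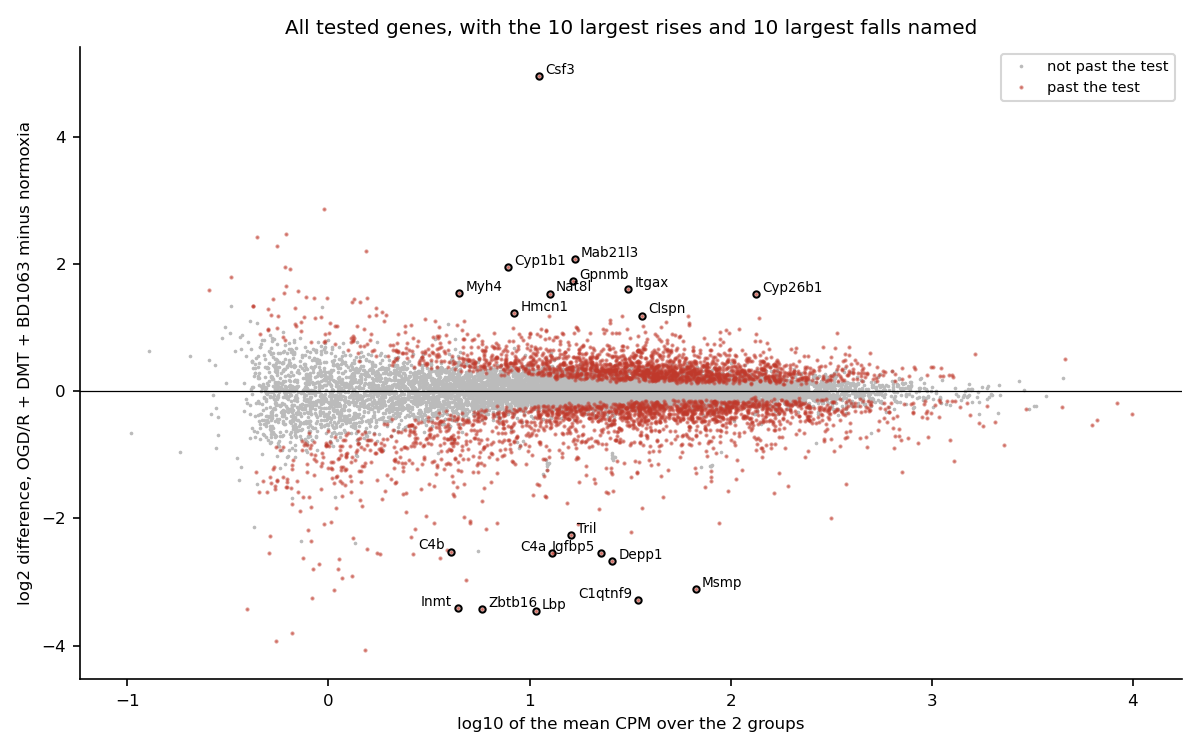
Log2 difference of the BD1063 group from normoxia (vertical axis) against the mean CPM of the 2 groups on a log10 scale (horizontal axis) for the 13834 genes tested. Red points passed the test, and the circled points are the 10 largest rises, up to 4.96 for Csf3, and the 10 largest falls, down to -3.46 for Lbp, among protein-coding genes of at least 4 CPM.

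Nearly all genes of DNA replication tested were higher in the BD1063 group. Of 19 genes that license and fire replication origins, 18 were higher than in normoxia and 0 lower, with a median log2 difference of 0.76. Of 27 genes of DNA synthesis, 25 were higher and 0 lower, with a median of 0.61. The median over all genes tested was 0.01. Mcm5, the helicase subunit whose promoter is printed above, stood at 134 to 163 CPM (median 146) in the BD1063 group, 145 to 158 CPM (median 148) in the DMT group, 156 to 207 CPM (median 176) in the OGD/R group and 65.9 to 83.6 CPM (median 73.4) in normoxia. Every BD1063 library lay above every normoxia library (log2 difference 0.98, SE 0.07, adjusted p = 3.52e-10). Its partner Mcm4 ranged over 107 to 118 CPM (median 113) in the BD1063 group and 56.4 to 74.6 CPM (median 62.9) in normoxia (log2 difference 0.82, SE 0.06, adjusted p = 2.14e-10). In bulk RNA, here and below, a change in the share of cells of a type or state and a change in RNA per cell cannot be told apart.

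Among the DNA synthesis genes, Fen1, the endonuclease that trims Okazaki fragments, was 2.05-fold higher in the BD1063 group, at 79.9 to 88.9 CPM (median 83.6) against 35 to 50 CPM (median 39.3) in normoxia (adjusted p = 5.28e-09). Dnmt1, the maintenance DNA methyltransferase, stood at 164 to 196 CPM (median 176) in the BD1063 group and 92.3 to 108 CPM (median 103) in normoxia (adjusted p = 6.03e-09). Both groups were again fully separate. The catalytic polymerase subunit Pole (1.08) and Uhrf1 (1.07), which recruits DNMT1 to new DNA, had the largest log2 differences of that list. Claspin (Clspn), the checkpoint mediator at stalled forks, was among the 10 largest rises of protein-coding genes of at least 4 CPM. It stood at 43.4 to 57.1 CPM (median 49.7) against 18.3 to 26.5 CPM (median 22) in normoxia (log2 difference 1.19, SE 0.09, adjusted p = 1e-09). Pole and Uhrf1 were chosen after their values were seen.

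Genes of G1 and of mitosis rose less evenly. Of 20 G1 cyclins, CDK inhibitors and E2F genes, 10 were higher and 2 lower. Cyclin E1 (Ccne1), which drives entry into S phase, stood at 27.6 to 38.1 CPM (median 33.9) in the BD1063 group and 13.9 to 19 CPM (median 16.1) in normoxia (log2 difference 1.07, SE 0.10, adjusted p = 4.09e-08), and cyclin E2 (Ccne2) was 1.72-fold higher. The CDK inhibitor Cdkn1c went the other way, at 0.0603 to 0.924 CPM (median 0.397) in the BD1063 group against 1.76 to 2.8 CPM (median 2.14) in normoxia (log2 difference -2.31, adjusted p = 1.81e-06). Of 22 mitotic genes, 12 were higher and 0 lower, with a median log2 difference of 0.25. They included the phosphatase Cdc25c (1.57-fold higher) and the kinase Aurkb (1.43-fold higher), whereas cyclin B1 (Ccnb1) was at -0.01 and Cdc20 at 0.07 on the log2 scale and neither passed. Without single libraries, the mitotic count ranged from 9 to 15. Cdkn1c, Ccnb1 and Cdc20 were chosen after their values were seen.

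**Figure D2:**
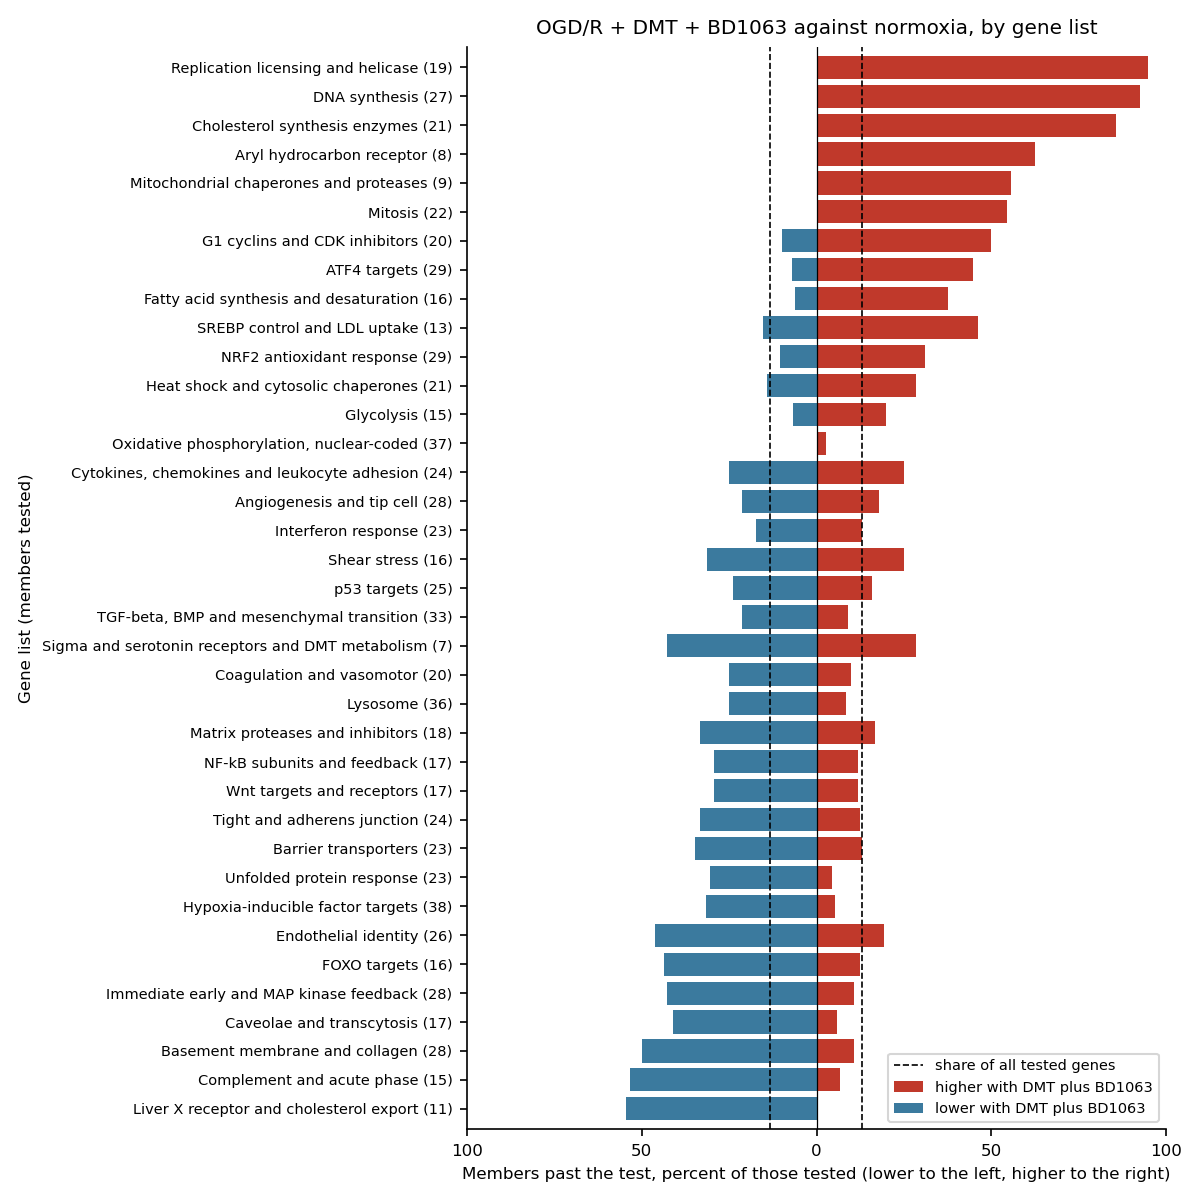
Share of the tested members of 37 gene lists that were higher (right, red) or lower (left, blue) in the BD1063 group than in normoxia, in percent, with the number tested in brackets. The dashed lines mark the shares among all genes, 13.1% higher and 13.2% lower. Replication licensing has 18 of 19 members to the right, and liver X receptor and cholesterol export genes have 6 of 11 to the left.

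Cholesterol synthesis was the other list that moved nearly as one. Of its 21 enzymes, 18 were higher in the BD1063 group and 0 lower, with a median log2 difference of 0.49. Hmgcs1 stood at 149 to 169 CPM (median 154) in the BD1063 group and 156 to 170 CPM (median 162) in the DMT group, against 109 to 130 CPM (median 117) in the OGD/R group and 97.5 to 119 CPM (median 105) in normoxia. Its BD1063 libraries lay above those of both OGD/R and normoxia (for normoxia, log2 difference 0.54, SE 0.05, adjusted p = 4.8e-08). Ggps1, Ebp and Pmvk were the 3 enzymes that did not pass, at -0.03, 0.05 and 0.15 on the log2 scale.

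The control of the pathway moved with it in part. Of 13 genes of SREBP control and LDL uptake, 6 were higher and 2 lower, or 6 and 0 under the read total scaling. Insig1 stood at 60.5 to 69.1 CPM (median 67.3) in the BD1063 group, 68.1 to 75.7 CPM (median 70.3) in the DMT group, 35.6 to 48.8 CPM (median 42.8) in the OGD/R group and 41.7 to 48.2 CPM (median 44.2) in normoxia. The BD1063 group did not overlap with normoxia (log2 difference 0.57, SE 0.06, adjusted p = 3.1e-07), while the ranges of OGD/R and normoxia overlapped. Insig2, its paralog, was lower in the BD1063 group (-0.33). Of 16 genes of fatty acid synthesis, 6 were higher and 1 lower. Fatty acid synthase (Fasn) was 1.87-fold higher and ATP citrate lyase (Acly) 1.4-fold higher. Ggps1, Ebp, Pmvk and Insig2 were chosen after their values were seen.

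Cholesterol export genes moved the opposite way. Of 11 genes of the liver X receptor list, 6 were lower in the BD1063 group and 0 higher, with a median log2 difference of -0.77. Apoe, the apolipoprotein that carries exported cholesterol in brain, stood at 87.2 to 141 CPM (median 136) in the BD1063 group, 130 to 239 CPM (median 149) in the DMT group, 115 to 221 CPM (median 147) in the OGD/R group and 415 to 590 CPM (median 502) in normoxia. That is 4-fold lower than in normoxia, with no overlap (SE 0.16 on the log2 scale, adjusted p = 2.81e-09). Pltp, the phospholipid transfer protein, ranged over 9.05 to 12.7 CPM (median 11.8) in the BD1063 group and 44.3 to 65 CPM (median 49.4) in normoxia (log2 difference -2.21, SE 0.11, adjusted p = 9.85e-13). Lpl, Mylip, Abcg1 and the receptor Nr1h3 were the other 4 that fell, with log2 differences between -0.95 and -0.65. The transporter Abca1, another target of the receptor, was at -0.18 and did not pass. Lpl, Mylip, Abcg1, Nr1h3 and Abca1 were chosen after their values were seen.

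Barrier genes differed by member. Of 24 tight and adherens junction genes, 8 were lower in the BD1063 group and 3 higher. Occludin (Ocln), a tight junction membrane protein, stood at 99.9 to 114 CPM (median 108) in the BD1063 group, 80.6 to 137 CPM (median 126) in the DMT group, 91.6 to 125 CPM (median 108) in the OGD/R group and 175 to 208 CPM (median 192) in normoxia. It was 1.79-fold lower than in normoxia (log2 difference -0.84, SE 0.10, adjusted p = 5.3e-07), and the groups were fully separate. The junctional adhesion molecule Jam2 (-0.71) and plakoglobin (Jup, -0.48) fell too, and so did Lsr (-1.07), the angulin of tricellular contacts.

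Claudin-5 (Cldn5), the main claudin of brain endothelium, stood at 1370 to 1680 CPM (median 1480) in the BD1063 group and 1720 to 2080 CPM (median 1950) in normoxia. Its groups did not overlap, yet its difference did not pass the test (log2 difference -0.36, SE 0.14, adjusted p = 0.0626). It passed where the 2 groups were fitted alone (adjusted p = 0.00011). The scaffold Tjp1 and VE-cadherin (Cdh5) overlapped between groups, with log2 differences of -0.18 (adjusted p = 0.334) and 0.10 (adjusted p = 0.373). The 3 junction genes that were higher were Pard3 (0.41), N-cadherin (Cdh2, 0.29) and beta-catenin (Ctnnb1, 0.16). Lsr, Pard3, Cdh2 and Ctnnb1 were chosen after their values were seen.

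Of 23 barrier transporters, 8 were lower in the BD1063 group and 3 higher. Abcg2, the drug efflux pump known as breast cancer resistance protein, stood at 42 to 49.9 CPM (median 47.7) in the BD1063 group, 49.1 to 64.5 CPM (median 49.8) in the DMT group, 41.4 to 60 CPM (median 47) in the OGD/R group and 101 to 122 CPM (median 111) in normoxia (log2 difference -1.25, SE 0.09, adjusted p = 1.87e-10). It was 2.38-fold lower than in normoxia in the BD1063 group, with no overlap. The organic anion carrier Slco1a4 stood at 2.21 to 3.42 CPM (median 2.39) in the BD1063 group and 9.58 to 13 CPM (median 11) in normoxia, 4.21-fold lower (adjusted p = 4.28e-09). Its relatives Slco1c1 (-1.52), Slco2a1 (-1.38) and Slco2b1 (-1.03) fell by over 1 on the log2 scale as well. The glucose transporter Slc2a1 was only 1.14-fold lower, at 374 to 398 CPM (median 385) in the BD1063 group and 413 to 463 CPM (median 445) in normoxia (adjusted p = 0.00681). The 3 that were higher carry amino acids, namely Slc1a5 (0.45), Slc7a1 (0.44) and Slc7a5 (0.23).

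Of genes of caveolae and vesicle traffic, 7 of 17 were lower and 1 was higher. Cavin2, a coat protein of caveolae, stood at 207 to 238 CPM (median 218) in the BD1063 group and 301 to 334 CPM (median 308) in normoxia (log2 difference -0.50, SE 0.05, adjusted p = 2.71e-08). Scarb1, the HDL receptor, was 1.58-fold lower. Caveolin-2 (Cav2, -0.77) and Plvap (-0.75), the diaphragm protein of fenestrae and caveolae that is low in mature barrier endothelium, were lower too, and the transferrin receptor Tfrc was higher (0.49). Slco1c1, Slco2b1, Slc1a5, Slc7a1, Slc7a5, Cav2, Plvap and Tfrc were chosen after their values were seen.

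**Figure D3:**
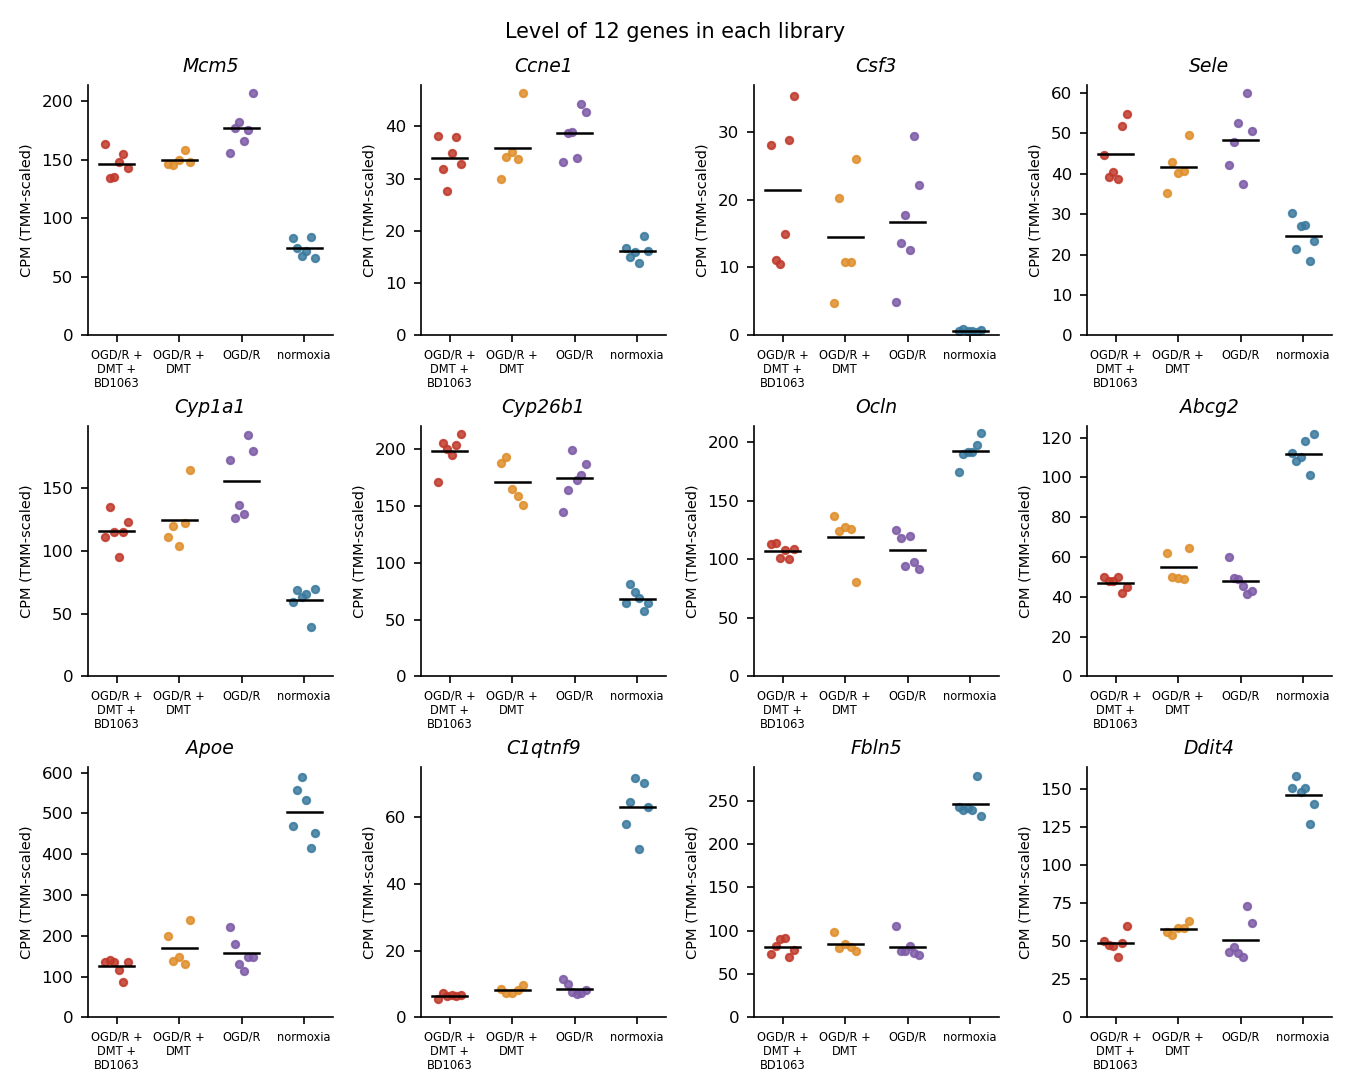
Level in CPM of 12 genes (vertical axes, each from 0) in every library of the 4 groups, 1 point a library, with the group mean as a line. For each gene shown, all 6 BD1063 libraries lay on 1 side of all 6 normoxia libraries, as for Abcg2 at 42 to 49.9 CPM against 101 to 122 CPM. The genes shown are a selection, and overlap was not counted over all genes tested.

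Of 26 endothelial identity genes, 12 were lower in the BD1063 group and 5 higher. Egfl7, a secreted endothelial protein, stood at 1490 to 1820 CPM (median 1630) in the BD1063 group and 2640 to 3370 CPM (median 2840) in normoxia (log2 difference -0.84, SE 0.09, adjusted p = 1.17e-07). The flow-responsive factors Klf2 and Klf4 had log2 differences of -0.71 and -0.86. Sox7, an endothelial transcription factor, rose 1.43-fold (141 to 147 CPM (median 145) in the BD1063 group against 92.3 to 112 CPM (median 99.2) in normoxia), and the VEGF receptor Kdr rose 1.51-fold. In the Wnt list, which marks the signal that maintains the barrier in brain vessels, 5 of 17 were lower and 2 higher. Its inhibitor Apcdd1 fell (-0.68), and so did Sox17 (-0.35), whereas Lef1 rose (0.40) and Axin2 was at -0.04 without passing. Of 28 angiogenesis and tip cell genes, 5 were higher and 6 lower, not far from the 13.1% and 13.2% of all genes. The Notch target Hey1 was 2.27-fold higher at a low level of 1.71 to 2.51 CPM in the BD1063 group against 0.81 to 1.5 CPM in normoxia. Of 16 genes of the shear stress list, 4 were higher and 5 lower, among the lower ones the prostaglandin transporter Slco2a1. Klf2, Klf4, Lef1 and Axin2 were chosen after their values were seen.

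Matrix genes were lower more often than higher. Of 28 basement membrane and collagen genes, 14 were lower in the BD1063 group and 3 higher. Fbln5, an elastic fibre protein, stood at 69.9 to 91.9 CPM (median 79.9) in the BD1063 group, 76.6 to 98.8 CPM (median 81.5) in the DMT group, 72.4 to 105 CPM (median 76.3) in the OGD/R group and 232 to 279 CPM (median 240) in normoxia. It was 3.04-fold lower than in normoxia (log2 difference -1.60, SE 0.09, adjusted p = 4.58e-12). Fbln1, a fibulin that is also on the fibroblast marker list, was 2.14-fold lower. Col3a1, a fibrillar collagen of fibroblasts, ranged over 34 to 143 CPM (median 107) in the BD1063 group and 182 to 439 CPM (median 287) in normoxia (log2 difference -1.48, adjusted p = 0.00162). The type IV collagens of the basement membrane fell less, by 0.19 for Col4a1 and 0.25 for Col4a2 on the log2 scale. Col15a1 rose 1.62-fold, and fibronectin (Fn1) was higher at 4620 to 6430 CPM (median 5540) in the BD1063 group against 2820 to 4580 CPM (median 3780) in normoxia (adjusted p = 0.0381). The Fn1 call held in only 4 of the 12 fits that left out 1 library.

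The fibroblast markers given above were lower in the BD1063 group, with a median log2 difference of -1.10. That list itself holds the collagens Col1a1, Col1a2 and Col3a1 and also Fbln1, so its fall is not separate from that of the collagens. Of its other members, Dcn and Lum were below 1 CPM and Slc6a13 and Dpt were at 0 in both groups. The part of fibroblasts in the result was not tested. Of 18 proteases and inhibitors of the matrix, 6 were lower and 3 higher. Mmp2, gelatinase A, stood at 109 to 119 CPM (median 114) in the BD1063 group and 186 to 217 CPM (median 205) in normoxia (log2 difference -0.83, SE 0.06, adjusted p = 4.12e-10), and the urokinase gene Plau was 1.57-fold higher. In the list of TGF-beta, BMP and mesenchymal transition, 7 of 33 were lower, with Bmp2 at -0.87, and 3 were higher, with the latent TGF-beta binding protein Ltbp1 at 0.74. Without normoxia 3, 4 of these 33 were lower. Col3a1, Col4a1, Col4a2, Col15a1 and Fn1 were chosen after their values were seen.

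Few genes that hypoxia induces were higher in the BD1063 group. Of 38 targets of hypoxia-inducible factor, 12 were lower than in normoxia and 2 higher, and the median log2 difference was -0.02. Ddit4, an inhibitor of mTORC1, stood at 39.6 to 60.2 CPM (median 48.4) in the BD1063 group, 54.4 to 63.5 CPM (median 58.5) in the DMT group, 39.6 to 73.3 CPM (median 44.8) in the OGD/R group and 127 to 159 CPM (median 149) in normoxia (log2 difference -1.58, SE 0.12, adjusted p = 1.07e-09). Ndrg1 stood at 214 to 248 CPM (median 224) in the BD1063 group, 219 to 257 CPM (median 235) in the DMT group, 171 to 198 CPM (median 178) in the OGD/R group and 282 to 340 CPM (median 324) in normoxia (log2 difference -0.48, adjusted p = 8.18e-07). Vegfa was lower too (-0.41), and the exceptions were Hk2 (0.36) and Tfrc. Under the read total scaling, 5 rather than 12 of these targets were lower, and 8 were without normoxia 3 and 5. Of 15 glycolysis genes, 3 were higher, among them pyruvate kinase Pkm (0.32), and 1 lower, the muscle phosphofructokinase Pfkm (-0.36). Of 37 nuclear genes of oxidative phosphorylation, 1 was higher, Atp5f1a (0.24), and 0 lower. That call held in 7 of the 12 fits that left out 1 library.

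Immediate early genes were lower more often than higher. Of 28 immediate early and MAP kinase feedback genes, 12 were lower and 3 higher. Btg2, an antiproliferative early gene, stood at 313 to 351 CPM (median 341) in the BD1063 group and 549 to 650 CPM (median 636) in normoxia (log2 difference -0.88, SE 0.06, adjusted p = 7.64e-11). Fos ranged over 1.89 to 2.77 CPM (median 2.18) in the BD1063 group and 4.55 to 29.9 CPM (median 6.36) in normoxia, where normoxia 5 was the highest (log2 difference -2.17, adjusted p = 0.0001). The early gene Ier3 went the other way and rose 1.45-fold. Targets of the FOXO factors, which insulin and growth factor signalling holds down, leaned the same way, with 7 of 16 lower and 2 higher. Txnip, the thioredoxin-interacting protein, fell to 382 to 455 CPM (median 411) in the BD1063 group, against 865 to 1120 CPM (median 1000) in normoxia (log2 difference -1.26, SE 0.08, adjusted p = 1.92e-11). Depp1, an autophagy regulator among the 10 largest falls of protein-coding genes of at least 4 CPM, was 6.37-fold lower. Pdk4 (-1.43) and Pik3ip1 (-1.72) fell as well. Vegfa, Hk2, Fos, Pdk4 and Pik3ip1 were chosen after their values were seen.

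Stress pathways split. Of 29 targets of ATF4, the factor of the amino acid response, 13 were higher and 2 lower. Gdf15, a secreted stress cytokine, stood at 18.4 to 28.3 CPM (median 22.5) in the BD1063 group, 20.8 to 31.5 CPM (median 24) in the DMT group, 8.81 to 17.8 CPM (median 12.6) in the OGD/R group and 10 to 14.8 CPM (median 11) in normoxia (log2 difference 1.00, SE 0.14, adjusted p = 9.06e-06). The tryptophanyl-tRNA synthetase Wars1 was 1.25-fold higher. Of the serine synthesis genes, Psat1 rose (0.62) and Phgdh fell (-0.58). Of 23 genes of the unfolded protein response, 7 were lower and 1 higher. Xbp1 was 1.25-fold lower and the chaperone Hyou1 1.13-fold higher. The count of lower genes depended on single libraries, with 4 of 23 without BD1063 3, normoxia 2 or normoxia 3, and 2 of 23 without normoxia 3 and 5. It was 1 of 23 under the read total scaling.

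Of 21 heat shock genes, 6 were higher and 3 lower. Hspb8 (-0.81) and Dnajb4 (-0.44) were lower, and so was the inducible Hspa1b, at 34.6 to 49.4 CPM (median 48.8) in the BD1063 group and 76.1 to 88.6 CPM (median 80.7) in normoxia. Of 9 mitochondrial chaperones and proteases, 5 were higher and 0 lower, among them Hspd1 (0.41) and Trap1 (0.30), with 3 higher without BD1063 1, 4 or 5 or without normoxia 1, 4 or 6. Of 36 lysosome genes, 9 were lower and 3 higher. The membrane protein Lamp2 stood at 154 to 179 CPM (median 162) in the BD1063 group and 220 to 242 CPM (median 233) in normoxia, whereas Gpnmb, a glycoprotein induced by lysosomal stress, rose 3.31-fold. Of 29 targets of the antioxidant factor NRF2, 9 were higher and 3 lower, with the quinone reductase Nqo1 1.37-fold higher and Osgin1 1.43-fold higher. Without normoxia 2, 5 of them were higher, and under the read total scaling 7 were higher and 1 lower.

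The list of the aryl hydrocarbon receptor, a sensor of planar ligands, had 5 of 8 genes higher and 0 lower. Cyp1a1, its best known target, stood at 95.4 to 135 CPM (median 115) in the BD1063 group, 104 to 164 CPM (median 120) in the DMT group, 126 to 192 CPM (median 154) in the OGD/R group and 39.4 to 69.6 CPM (median 64.3) in normoxia (log2 difference 0.92, SE 0.13, adjusted p = 1.3e-05). Tiparp rose 1.91-fold, and Cyp1b1 was 3.89-fold higher at 9.91 to 16 CPM (median 12.7) in the BD1063 group against 1.83 to 5.86 CPM (median 2.79) in normoxia. Of 25 p53 targets, 4 were higher, near the 13.1% of all genes, and 6 lower, where the share of all genes was 13.2%. Gadd45b was at -0.70. Psat1, Phgdh and Hspa1b were chosen after their values were seen.

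Inflammatory genes went both ways. Of 24 cytokines, chemokines and leukocyte adhesion genes, 6 were higher in the BD1063 group and 6 lower. Csf3, the granulocyte colony-stimulating factor, had the largest rise among protein-coding genes of at least 4 CPM, at 10.5 to 35.2 CPM (median 21.5) in the BD1063 group, 4.71 to 26 CPM (median 10.8) in the DMT group, 4.99 to 29.4 CPM (median 15.7) in the OGD/R group and 0.522 to 0.938 CPM (median 0.618) in normoxia. The rise was 31.1-fold, with a wide spread among the treated inserts and no overlap with normoxia (log2 difference 4.96, SE 0.52, adjusted p = 1.17e-07). E-selectin (Sele), on which leukocytes roll, stood at 38.8 to 54.7 CPM (median 42.5) in the BD1063 group and 18.3 to 30.4 CPM (median 25.2) in normoxia (log2 difference 0.87, SE 0.13, adjusted p = 1.18e-05). P-selectin (Selp, 1.19) and the neutrophil chemokines Cxcl6 (1.18) and Cxcl1 (0.80) rose with them. The firm adhesion molecules were lower, with Vcam1 at 3.95 to 6.79 CPM (median 5.72) in the BD1063 group and 8.45 to 11.5 CPM (median 8.82) in normoxia, Icam1 at -0.35 and Madcam1 at -1.20 on the log2 scale. Ccl2 and Il6 did not pass, at -0.06 and 0.19.

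Of 17 NF-kB subunits and feedback genes, 2 were higher and 5 lower. The inhibitor Nfkbia stood at 115 to 125 CPM (median 123) in the BD1063 group and 170 to 200 CPM (median 181) in normoxia. Its relative Nfkbiz stood at 116 to 143 CPM (median 122) in the BD1063 group and 81.8 to 96.5 CPM (median 84.6) in normoxia. These 2 genes of the same family thus moved in opposite directions (adjusted p = 3.17e-07 and 1.81e-06). Of 23 interferon response genes, 3 were higher and 4 lower, near the shares among all genes. Ifit2 (-0.36) and B2m (-0.55), the light chain of MHC class I, were among the lower ones.

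Complement and acute phase genes were lower more often than higher, with 8 of 15 lower and 1 higher and a median log2 difference of -0.60. Lbp, the lipopolysaccharide binding protein, stood at 1.36 to 2.93 CPM (median 1.49) in the BD1063 group, 0.811 to 2.24 CPM (median 1.57) in the DMT group, 1.43 to 4.67 CPM (median 2.08) in the OGD/R group and 15.9 to 23.6 CPM (median 19.4) in normoxia. It had the largest fall among protein-coding genes of at least 4 CPM (log2 difference -3.46, SE 0.25, adjusted p = 3.68e-10). Ceruloplasmin (Cp) was 4.23-fold lower. C4a and C4b fell by 2.54 and 2.52 on the log2 scale, but these genes are near-identical copies and how reads were divided between them is uncertain. C3 was at 1.06 and did not pass. Of 20 coagulation and vasomotor genes, 5 were lower and 2 higher, with angiotensin-converting enzyme (Ace) at 180 to 231 CPM (median 193) in the BD1063 group and 432 to 618 CPM (median 591) in normoxia (log2 difference -1.46, SE 0.15, adjusted p = 7.85e-08). Selp, Cxcl6, Cxcl1, Vcam1, Icam1, Madcam1, Ccl2, Il6 and C3 were chosen after their values were seen.

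Of 7 tested genes of sigma and serotonin receptors and DMT metabolism, 2 were higher in the BD1063 group than in normoxia and 3 lower. Among the lower ones, the call of Maoa (-0.15, chosen after its values were seen) held in only 1 of the 12 fits that left out 1 library. Tmem97, the gene of the sigma-2 site, stood at 59.7 to 75 CPM (median 64) in the BD1063 group, 55.3 to 75.6 CPM (median 64.3) in the DMT group, 66.4 to 82.9 CPM (median 70.5) in the OGD/R group and 38.1 to 48.3 CPM (median 41.4) in normoxia, 1.57-fold higher than normoxia (log2 difference 0.65, SE 0.08, adjusted p = 8.16e-07). The 3 groups that had gone through OGD/R overlapped for this gene. Inmt, an enzyme that can methylate tryptamine to DMT, ranged over 0.302 to 1.16 CPM (median 0.757) in the BD1063 group and 0.913 to 19.8 CPM (median 3.63) in normoxia, and its groups overlapped (log2 difference -3.41, SE 0.75, adjusted p = 0.00126). The serotonin receptor gene Htr2a was low, at 1.07 to 2.6 CPM (median 1.31) in the BD1063 group and 1.87 to 3.13 CPM (median 2.84) in normoxia (adjusted p = 0.00268), and was chosen after its values were seen.

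The other large changes were of mixed function. Of the 10 largest rises of protein-coding genes of at least 4 CPM, Cyp26b1, which degrades retinoic acid, was the most abundant. It stood at 171 to 213 CPM (median 202) in the BD1063 group and 57.5 to 81 CPM (median 66.8) in normoxia (log2 difference 1.53, SE 0.09, adjusted p = 7.05e-12). Itgax, an integrin subunit best known from dendritic cells, stood at 38.7 to 57.8 CPM (median 45.9) in the BD1063 group, 37.2 to 41 CPM (median 39.4) in the DMT group, 43.6 to 56.4 CPM (median 49.4) in the OGD/R group and 14.1 to 18.3 CPM (median 14.9) in normoxia (log2 difference 1.60, SE 0.08, adjusted p = 1.95e-12). Of the 8 tested microglia and leukocyte markers given above, Itgam and Cd68 were higher as well, and their part in this result was not tested. Mab21l3 rose 4.22-fold, Nat8l, the enzyme that makes N-acetylaspartate, 2.9-fold, Hmcn1, an extracellular matrix protein, 2.34-fold and Myh4, a muscle myosin, 2.9-fold.

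Of the 10 largest falls of protein-coding genes of at least 4 CPM, C1qtnf9, a secreted relative of adiponectin, had the smallest p of all genes. It stood at 5.55 to 7.39 CPM (median 6.48) in the BD1063 group, 7.3 to 9.81 CPM (median 8.24) in the DMT group, 6.91 to 11.4 CPM (median 7.9) in the OGD/R group and 50.6 to 71.9 CPM (median 63.8) in normoxia (log2 difference -3.28, SE 0.12, adjusted p = 1.79e-15). Msmp, a chemokine-like secreted protein, fell to 10.3 to 18.2 CPM (median 13.5) in the BD1063 group, against 96.9 to 141 CPM (median 119) in normoxia. Zbtb16, a factor induced by glucocorticoids, was 10.7-fold lower at a low level (0.716 to 1.13 CPM in the BD1063 group, 6.92 to 13.2 CPM in normoxia). Igfbp5, which binds insulin-like growth factors, was 5.82-fold lower and Tril, an accessory protein of Toll-like receptors, 4.81-fold lower. Except for Inmt, the 6 BD1063 libraries lay below the 6 normoxia libraries for each of these 10 genes. As the genes were picked for large falls, that is not a separate result, and overlap was not counted over all genes tested.

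Whether the distance from normoxia differed in size from that of OGD/R without compounds was read from the BD1063 group against the OGD/R group, since both stand against the same normoxia libraries. Far fewer genes differed here. Of 13834 genes, 735 were called (5.31%), 257 higher (1.86%) and 478 lower (3.46%). Differences of at least 2-fold numbered 5 higher (0.0361%) and 52 lower (0.376%). The count rested on single libraries. It was 76 without BD1063 3 or without BD1063 5, 108 without OGD/R 2, 142 without BD1063 4, 259 without BD1063 6, 288 without OGD/R 5, 358 without OGD/R 6, 416 without BD1063 2 and 485 without BD1063 1. In all, 61 genes were called in the same direction in each of the 12 fits that left out 1 library, 28 higher and 33 lower. The split of directions moved with the scaling. With only that changed, to the deposited read totals, 457 genes were higher and 36 lower and the median log2 difference of all genes was 0.10 in place of -0.01, while DESeq2's size factors gave 307 and 412. Falls below are thus relative to the TMM scaling. A pair of OGD/R libraries stood apart. Genes took up 58.8% of the read total of OGD/R 3, where the rest of its group had 71.9% to 75.2%. OGD/R 5 lay at 39.7 on the first principal component, where the rest of its group lay at 3.22 to 17.6. Without both, 116 genes were called.

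Most of the largest differences from normoxia did not pass here. Of the 20 protein-coding genes of at least 4 CPM with the largest rises and falls against normoxia, Gpnmb was the only one called against OGD/R (log2 difference 0.79, SE 0.17, adjusted p = 0.0206). Gpnmb stood at 20.7 to 28.2 CPM (median 25.8) in the BD1063 group and 9.75 to 18.4 CPM (median 16.1) in the OGD/R group, and its call was lost without BD1063 3 or without OGD/R 3 and 5 together. Ocln (-0.01, adjusted p = 0.963), Abcg2 (-0.03, adjusted p = 0.859) and Csf3 (0.36, adjusted p = 0.539) did not differ beyond their spread on the log2 scale. That does not show equal levels: the SE of these 3 differences was 0.10, 0.09 and 0.36. The SE of the median gene was 0.11.

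**Figure D4:**
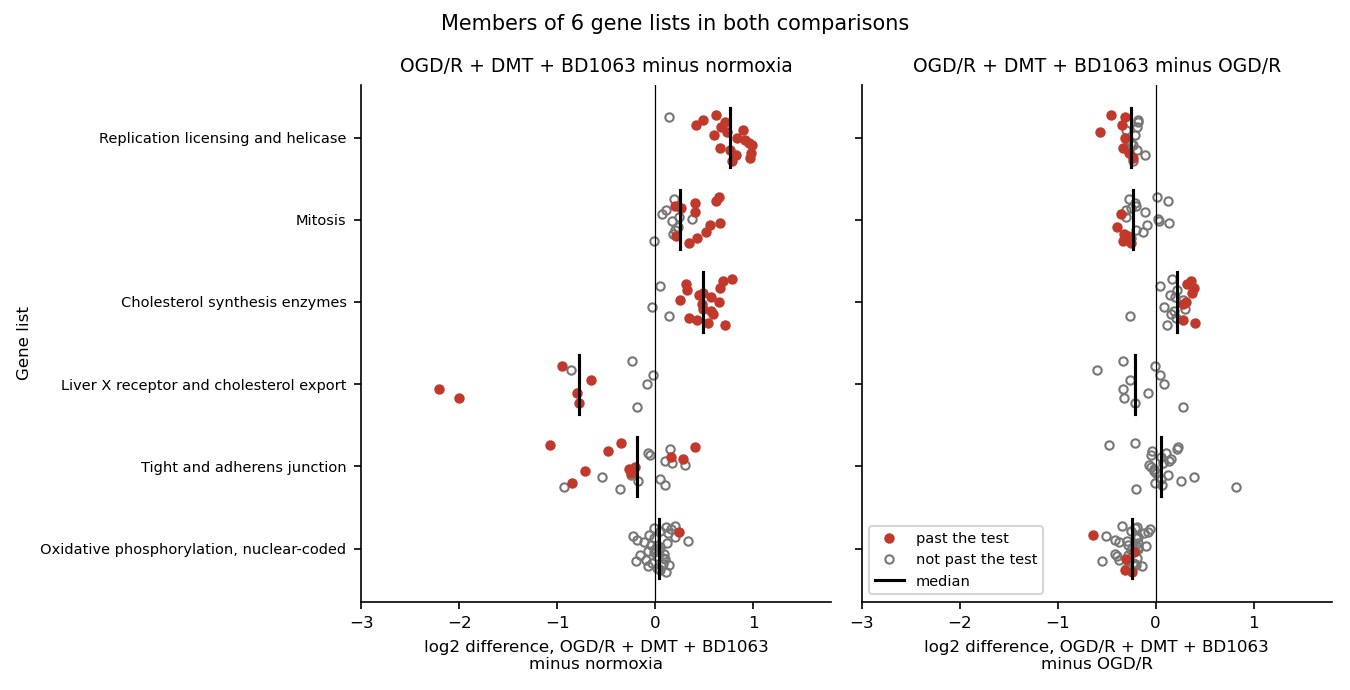
Log2 difference of each tested member of 6 gene lists (1 point a gene) from normoxia (left) and from OGD/R (right), with the list median as a line and filled points past the test. The median of the cholesterol synthesis enzymes is right of 0 in both panels (0.49 and 0.21), and that of the replication licensing genes is right of 0 against normoxia (0.76) and left of 0 against OGD/R (-0.25).

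Some sterol genes stood further from normoxia in the BD1063 group than in OGD/R. Of 21 cholesterol synthesis enzymes, 8 were higher in the BD1063 group than in OGD/R and 0 lower, with a median log2 difference of 0.21 where the median of all genes was -0.01. It was 5 without OGD/R 2 or BD1063 3 and 3 without BD1063 5, between 3 and 10 over all single libraries, 4 without OGD/R 3 and 5 together and 11 under the read total scaling. Insig1 had the clearest difference, 1.55-fold higher in the BD1063 group than in OGD/R with no overlap (log2 difference 0.63, SE 0.06, adjusted p = 9.52e-06). Hmgcs1 was 1.32-fold higher (log2 difference 0.40, SE 0.05, adjusted p = 0.00041), also with no overlap. Srebf2, which codes for SREBP2 itself, stood at 187 to 224 CPM (median 201) in the BD1063 group, 165 to 199 CPM (median 185) in the DMT group, 143 to 168 CPM (median 163) in the OGD/R group and 143 to 173 CPM (median 159) in normoxia (against OGD/R, log2 difference 0.36, SE 0.06, adjusted p = 0.00654). These 3 calls held in all 12 fits that left out 1 library.

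Some replication genes stood nearer to normoxia than in OGD/R. Of 19 licensing genes, 8 were lower in the BD1063 group than in OGD/R and 0 higher, with a median of -0.25, and of 27 DNA synthesis genes 6 were lower and 0 higher. The calls of both lists were all lost without OGD/R 3 and 5, where the medians were -0.24 and -0.20, and under the read total scaling, where they were -0.14 and -0.10. With 1 library left out, each list had between 0 and 9 lower, and both counts moved by over 1.5 times without OGD/R 2, 3, 5 or 6 and without BD1063 2, 3, 4, 5 or 6. Mcm5 was 1.21-fold lower in the BD1063 group than in OGD/R (log2 difference -0.27, SE 0.07, adjusted p = 0.0316), and this call held in 4 of the 12 fits. Against normoxia its rise in the BD1063 group was 1.97-fold. Of 22 mitotic genes, 6 were lower and 0 higher, among them Ccnb1 (-0.33) and Cdc20 (-0.36). That count was 0 to 2 without OGD/R 2, 3 or 6 or BD1063 2, 3, 4, 5 or 6, 1 without OGD/R 3 and 5 and 0 under the read total scaling. Of the 37 genes of oxidative phosphorylation, 5 were lower than in OGD/R and 0 higher, with a median of -0.24, led by Cox7c at 133 to 185 CPM (median 150) in the BD1063 group and 186 to 333 CPM (median 232) in the OGD/R group. Those 5 calls were lost without OGD/R 3 and 5, where the median was -0.17, and under the read total scaling, and the count was 0 to 3 without OGD/R 2, 5 or 6 or BD1063 3, 4, 5 or 6, and 8 without OGD/R 4.

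Some genes differed from OGD/R and not detectably from normoxia. Angpt2, the Tie2 ligand that loosens vessels, stood at 669 to 752 CPM (median 703) in the BD1063 group, 604 to 714 CPM (median 689) in the DMT group, 495 to 604 CPM (median 536) in the OGD/R group and 672 to 800 CPM (median 677) in normoxia. It was higher in the BD1063 group than in OGD/R with no overlap (log2 difference 0.37, SE 0.06, adjusted p = 0.00243) and was at 0.01 against normoxia (adjusted p = 0.888). The endothelial factor Erg, at 0.03 against normoxia (adjusted p = 0.794), stood at 322 to 345 CPM (median 333) in the BD1063 group against 252 to 293 CPM (median 272) in the OGD/R group (log2 difference 0.29, SE 0.07, adjusted p = 0.0316), and its call held in only 5 of the 12 fits. Ndrg1 (0.34, adjusted p = 0.00518) and the lysosomal protease Tpp1 (0.34, adjusted p = 0.00724) were higher than in OGD/R and lower than in normoxia, and held in all 12 fits. Of 36 lysosome genes, 5 were higher than in OGD/R and 1 lower. The higher count was 2 without BD1063 3, 3 without OGD/R 2, 5 or 6 or any other single BD1063 library, 2 without OGD/R 3 and 5 and 6 at most.

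Gdf15 was 1.83-fold higher in the BD1063 group than in OGD/R with no overlap (log2 difference 0.87, SE 0.14, adjusted p = 0.00441). Its OGD/R range, 8.81 to 17.8 CPM, included the whole normoxia range, 10 to 14.8 CPM. None of the other ATF4 targets on the list passed against OGD/R. Uap1l1 had the largest rise against OGD/R by the naming rule, at 8.38 to 11.2 CPM (median 10.7) in the BD1063 group and 4.79 to 7.09 CPM (median 5.08) in the OGD/R group (log2 difference 0.88, SE 0.11, adjusted p = 0.000218). Unc13a (0.65) and Zswim5 (0.64) were called too, and held in 4 and 10 of the 12 fits.

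**Figure D5:**
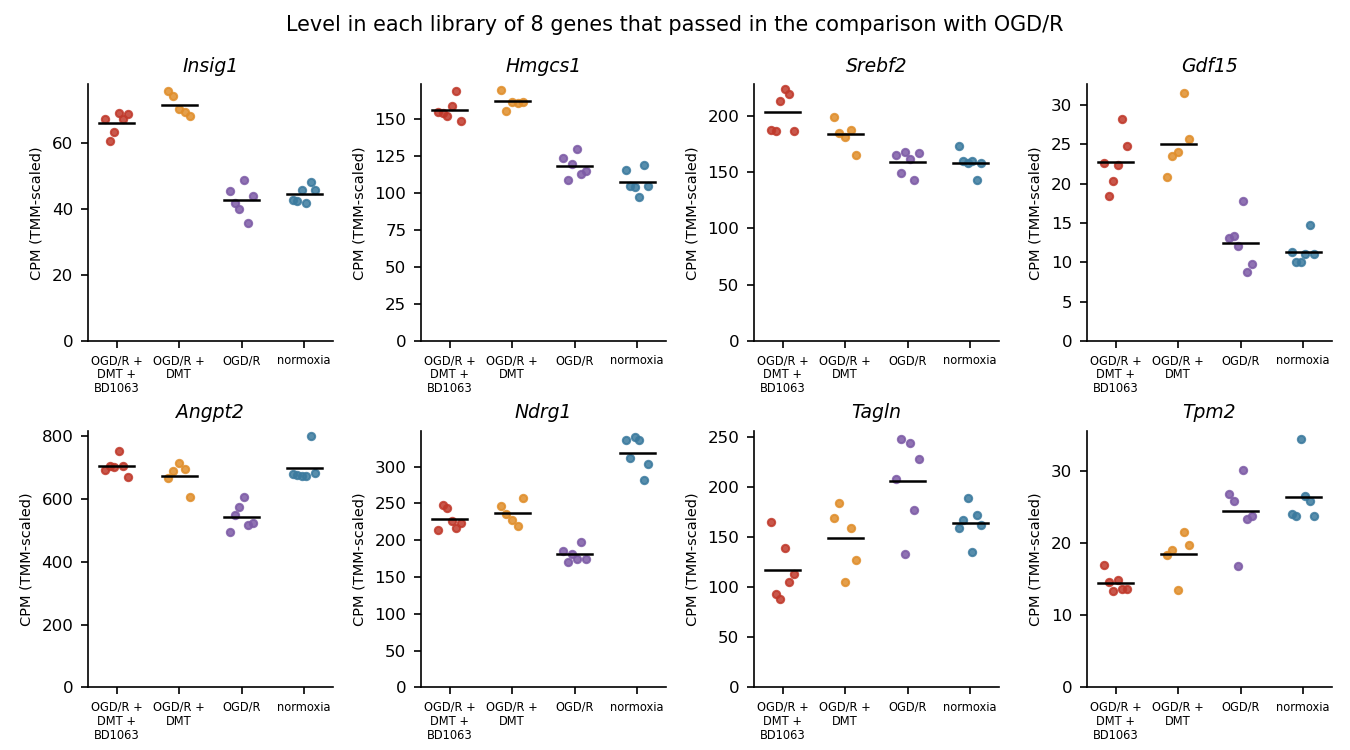
Level in CPM of 8 genes (vertical axes, each from 0) in every library of the 4 groups, 1 point a library, with the group mean as a line. Insig1 lies at 60.5 to 69.1 CPM in the BD1063 group, above both OGD/R (35.6 to 48.8 CPM) and normoxia (41.7 to 48.2 CPM), and Tagln and Tpm2 are lower in the BD1063 group than in OGD/R.

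Of the 6 largest falls against OGD/R among protein-coding genes of at least 4 CPM, 3 were genes of the contractile cytoskeleton. Over all genes tested, 52 were lower by at least 2-fold, a larger fall than that of any of these 6. Tagln, a smooth muscle protein, stood at 88.2 to 165 CPM (median 109) in the BD1063 group, 105 to 184 CPM (median 159) in the DMT group, 133 to 248 CPM (median 218) in the OGD/R group and 135 to 189 CPM (median 165) in normoxia (against OGD/R, log2 difference -0.82, SE 0.16, adjusted p = 0.0105). Tpm2, a tropomyosin, was 1.68-fold lower than in OGD/R (log2 difference -0.75, SE 0.12, adjusted p = 0.00441) though its BD1063 and OGD/R ranges met at 1 edge, and lower than in normoxia (-0.86). Smooth muscle actin (Acta2) was 1.82-fold lower than in OGD/R (adjusted p = 0.0462), a call that held in 2 of the 12 fits, and its groups overlapped. Acta2 and Tagln are also 2 of the 9 tested pericyte and smooth muscle markers, which summed to 126 to 230 CPM in the BD1063 group and 183 to 349 CPM in OGD/R. Most of that sum is Tagln itself, at the levels given above, so the lower sum is not separate from the fall of Tagln. Pdgfrb was not called against OGD/R and Rgs5 was too low to test. The part of those cells in the result was not tested. Slc2a4, Lsm5 and the ribosomal protein gene Rpl21 completed these 6 falls, with log2 differences of -0.76, -0.80 and -0.67. Ribosomal protein genes have near-identical copies, so the Rpl21 value is uncertain. Srebf2, Ccnb1, Cdc20, Cox7c, Angpt2, Erg, Tpp1, Pdgfrb and Rgs5 were chosen after their values were seen.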

How the data were processed

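RNA of the endothelial lysates was measured by poly-A selected, directional mRNA sequencing with single 75-base reads, per the labels' protocols. The Rnor_6.0 build, STAR 2.7.10a and RSEM 1.3.3 are listed per the submitters' processing notes, as are DESeq2 1.38, FastQC 0.11.9 and cutadapt 3.4, with no roles given. The authors deposited a table of raw counts per gene for 32883 gene IDs, and 396 of these carry no gene name. The authors also deposited a table named as TPM whose values are CPM of a larger read total: 100% of values came out as whole reads within 0.01 read, and all equalled the counts. The same edgeR test on those recovered reads called the same number of genes, 3636. Where 192 names had several IDs, the most abundant was used.

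The counts were fitted with edgeR 4.0.16 (quasi-likelihood test, TMM scaling, filterByExpr with a minimum count of 10, R 4.3.3) on all 23 libraries, with Benjamini-Hochberg adjustment over the 13834 genes tested and a threshold of 0.05. Alternatives used limma 3.58.1, DESeq2 1.42.0 and other filters, scalings and sample sets. In simulated data for the BD1063 group against normoxia (13751 genes), 19.4% of genes changed 1.25-fold, 73.1% of those changed 1.5-fold and 80.3% of those changed 2-fold were recovered. Only 67, 67 and 66 genes were changed at these folds, where the data gave 3636 calls. The adjustment was thus stricter there, and these shares do not give the recovery in the data. Genes were named by a rule: the 10 largest called rises and falls of protein-coding genes of at least 4 CPM, the 2 called members of smallest p in each list, 11 fixed genes, and the 6 largest rises and falls against OGD/R. The rule named 100 genes, and 54 further ones with full values were chosen after their values were seen, as were other list members given by their log2 difference. The members and lists were chosen with earlier results of these data known. Replicate numbers are not stated to pair libraries, so no block was used in the main fit. Intervals are not given for single counts. The sources used here do not say how reads shared between gene copies were counted. Some genes are not reported here.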

Additional observations from a re-analysis of the deposited data

Results flagged for a closer look

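In 28 of 308 group tests on the named genes, 1 library lay far from the other libraries of its group, where chance alone marks about 1 group in 20. Most of these were in normoxia 5, one of the 2 normoxia libraries that stood apart. Cell cycle genes were high in normoxia 5, with Aurkb at 60.1 CPM (44.5 to 49.4 in the other normoxia libraries), Cdc25c at 19.4 (14.9 to 16.4), Ccne2 at 41.8 (29.8 to 33.7) and Gins1 at 17.1 (8.14 to 10.8). Also high there were Fos at 29.9 CPM (4.55 to 7.93), Angpt2 at 800 (672 to 683), Fbln5 at 279 (232 to 243), Gdf15 at 14.8 (10 to 11.3), Psat1 at 44.9 (27.7 to 32.3), Dhcr7 at 17.0 (12.6 to 14.2) and Slc2a4 at 11.2 (6 to 7.73). Low in normoxia 5 were Tril at 16.1 CPM (25.7 to 31.2), Cyp1a1 at 39.4 (59.5 to 69.6), Col15a1 at 224 (292 to 330), Slc1a1 at 13.2 (17.1 to 19.1) and Pdk4 at 17.0 (25.6 to 29.3).

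In other normoxia libraries, Tpm2 at 34.5 CPM (23.7 to 26.6), Ltbp1 at 52.5 (61.8 to 67) and Pole at 24.2 (30 to 33.3) stood apart in normoxia 3, and Itgax at 18.3 (14.1 to 15.6) and Gadd45b at 60.5 (70.4 to 76.3) in normoxia 1. Nfkbiz at 96.5 CPM (81.8 to 87) and Htr2a at 1.87 (2.7 to 3.13) stood apart in normoxia 6, Dnajb4 at 86.4 (93.7 to 96.9) in normoxia 4, and Hey1 at 1.5 (0.81 to 0.973) in normoxia 2. In the BD1063 group, Htr2a at 2.6 CPM (1.07 to 1.49) and Xbp1 at 162 (180 to 183) stood apart in BD1063 5, and Zbtb16 at 0.716 (0.979 to 1.13) in BD1063 6.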

How the results depend on the processing

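Against normoxia, genes called ranged from 3134 to 3573 without single libraries (higher 1546 to 1819, lower 1547 to 1754). With the 2 groups fitted alone, 4954 were called (2503 higher, 2451 lower). Without OGD/R 3 and 5 and DMT 3 and 5, 4994 were called (2487 and 2507). Both exceed the 3636 of the main fit, where all 23 libraries share 1 estimate of the spread. DMT 5 lay at 56.7 on the first principal component, where the rest of its group lay at -9.11 to 0.958. The part of DMT 5 in these counts was not tested. A test against a fold of 1.5 (edgeR's glmTreat) called 257, 64 higher and 193 lower, and limma voom with sample weights called 5886, 2975 higher and 2911 lower. With edgeR scaled to the deposited read totals, 1590 were higher and 1076 lower, and against OGD/R 457 and 36. On deposited CPM, limma called 989 lower with 0.1 added, 1024 with 1 added and 1118 with 1 added and no filter. Against OGD/R, calls ranged from 76 to 975 without single libraries (higher 31 to 351, lower 41 to 651). DESeq2 called 1301 (574 higher, 727 lower), voom 1650 (632 and 1018), the 2 groups alone 1500 (734 and 766) and no count filter 257 (140 and 117). With limma on deposited CPM the calls were 487 with 0.1 added (473 higher, 14 lower), 506 higher and 17 lower with 1 added, and 264 in all, 11 lower, with 1 added and no filter. Without OGD/R 3 and 5, 116 were called (54 and 62), and without DMT 3 and 5 as well, 1327 (553 and 774); these settings and the read total scaling were chosen after seeing the data. The fold test called 0 genes against OGD/R, 0 higher and 0 lower, where 3438 had an unadjusted p under 0.05. With the replicate block, 3896 genes were called against normoxia and 1051 against OGD/R, 417 of them higher. Same-numbered libraries correlated at -0.182 to 0.0285 for the pair with normoxia and -0.177 to 0.258 for the pair with OGD/R. Not every library correlated best with its own number. Whether same-numbered inserts shared a cell isolation cannot be read from these values. Among the named genes none reversed. Over their alternatives, 4110 values against normoxia stayed on the same side of the threshold, 183 lost it and 13 gained it, and against OGD/R 3975 stayed, 296 lost it and 27 gained it. The cause was not tested. Depth limits genes of few CPM, and small fold changes were often missed in the simulated data, which held far fewer changed genes.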
